A study of Mus musculus with 26 samples.

Results

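Grb10, the gene truncated in one of the edited lines of the study, was followed together with Ddc, Cobl, Fignl1 and Ikzf1, which lie beside it on mouse chromosome 11. These 5 genes were taken by name from both RNA-seq count tables, which list 55291 genes each, and all 5 passed the filter on low counts in both tables. Mouse ESCs of the E14 line (pluripotent stem cells of the embryo) and NPCs (neural progenitors) made from them by 2 days of differentiation in N2B27 medium on laminin were sequenced in 26 libraries of 10 groups.

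Of these groups, 4 came from CTCF rescue lines, with 2 libraries each: ESC WT rescue, ESC ΔZF1 rescue, NPC WT rescue and NPC ΔZF1 rescue. CTCF is the zinc finger protein that anchors chromatin loops, and ΔZF1 is CTCF with a deletion in its first zinc finger. In all 4 groups the endogenous CTCF was fused on both alleles to mAID-eGFP, OsTIR1(F74G) was expressed from the Rosa26 locus on 1 allele, and an mCherry reporter had been placed at the Hb9 locus. Cells of all 4 groups received 1 µM 5-Ph-IAA, which degrades the tagged CTCF, and 1 µg/ml doxycycline, which induces Flag-Halo-tagged CTCF from the Tigre locus, for 24 h. WT and ΔZF1 CTCF were each carried by 1 clone, so that clone and protein cannot be told apart. The other 6 groups, with 3 libraries each and no treatment in their labels, were ESC and NPC E14 WT, ESC and NPC Podxl pA, and ESC and NPC Grb10 pA. Both pA lines carry a homozygous in-frame insert of eGFP and an SV40 polyadenylation signal (pA), meant to end transcription behind the first coding exon of Podxl or of Grb10, and they were sorted for eGFP. Podxl encodes the cell surface protein podocalyxin and lies on another chromosome, so that its line serves as an edited line with an intact Grb10. The sources used here do not say how many clones the libraries of each pA line came from, and while the study calls its replicates biological, the labels do not say whether they were separate cultures, so that p-values measure the spread between these libraries.

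Grb10 encodes an adaptor protein with an SH2 domain that binds activated insulin and insulin-like growth factor receptors and damps their signaling, and mTORC1 phosphorylates and stabilizes it. The gene is imprinted: most mouse tissues express the maternal allele, while neurons of the central nervous system express the paternal allele from other promoters. Of its neighbours, Ddc encodes aromatic L-amino acid decarboxylase, which makes dopamine and serotonin from their amino acid precursors. Cobl encodes the actin nucleator Cordon-bleu, Fignl1 encodes an AAA ATPase that acts in recombination repair, and Ikzf1 encodes Ikaros, a zinc finger transcription factor of lymphocyte development.

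The sequences that define the edit are shown because every Grb10 count in the Grb10 pA line depends on where the insert sits. The guide and the junction of the homology arm with the insert both fall at the end of exon 3 of the transcript Grb10-201, which holds the first coding bases. Oligonucleotides are those of the study, the exon sequence is that of GENCODE M21 on GRCm38, and all are written 5′ to 3′. In the guide, capitals mark the 18 bases that match the end of the exon on the minus strand of chromosome 11, from 11970423 to 11970440, and the 2 lower case bases lie past the exon. In the coding part of exon 3, chr11:11970423-11970616, capitals mark the last 20 Grb10 bases of the donor before the insert, from 11970425 to 11970444. The RT-qPCR primers match exon 4 (forward, 11967566 to 11967585) and exon 5 (reverse, 11954865 to 11954884), both behind the insert.
sgRNA048_Grb10: GCCTGTGCACATTCTCAGgt
coding part of exon 3 of Grb10-201: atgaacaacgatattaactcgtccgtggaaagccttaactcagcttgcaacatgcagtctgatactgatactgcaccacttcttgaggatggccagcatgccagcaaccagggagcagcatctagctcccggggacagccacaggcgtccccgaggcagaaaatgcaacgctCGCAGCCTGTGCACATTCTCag
RT-qPCR forward: tcggttgctcctagctcctt
RT-qPCR reverse: agacctggacgggtgagttt

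The insert follows base 11970425, 68.3 kb behind the annotated start of Grb10. It leaves 192 coding bases, or 64 whole codons, of the 1788 coding bases of Grb10-201 (10.7%) in front of it, and 2 bases of the exon behind it. Of the 5061 bases of this transcript, 507 (10.0%) lie before the insert, and the shares are 10.6% in Grb10-202 and 7.70% in Grb10-203. In the short coding transcripts Grb10-206, Grb10-207 and Grb10-209 the shares are 57.8%, 85.6% and 83.4%, and Grb10-204, Grb10-205 and Grb10-208 start behind the insert. Of all annotated Grb10 exon bases together, 14% lie before it. Reads were counted per gene, so that reads before and behind the insert were not told apart.

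**Figure D1:**
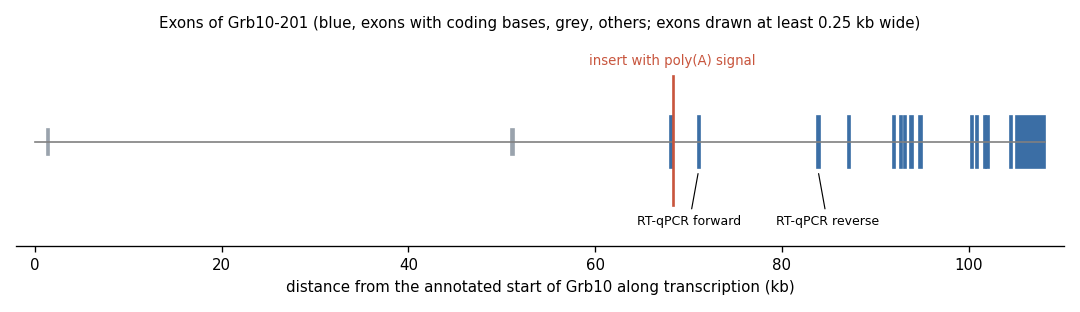
Exons of the transcript Grb10-201 (boxes) by distance from the annotated start of Grb10 in kb, with the insert (vertical line) and the exons of both RT-qPCR primers. The insert stands at 68.3 kb, at the end of exon 3, with exons 4 to 17 behind it.

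On GRCm38, Grb10 spans 11930508 to 12038683 of chromosome 11 on the minus strand. On the side of its 3′ end lie Ddc (11814101 to 11898144, minus strand), Fignl1 (11787431 to 11808962, minus strand) and Ikzf1 (11685003 to 11772926, plus strand), and on the side of its start lies Cobl (12236608 to 12464960, minus strand). The starts of Ddc, Fignl1, Ikzf1 and Cobl are 140.5, 229.7, 353.7 and 426.3 kb from that of Grb10. Counting did not use strand, so that reads of Ddc and of its antisense gene 1700042O10Rik, of Cobl and of its antisense gene Gm12002, and of Ikzf1 and the overlapping Gm11999 and Gm12000 cannot be told apart where their exons overlap. Reads from introns of Ddc or Cobl that fall on exons of the antisense genes may also be counted for the latter.

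Counts on genes ranged from 6425179 to 28730435 per rescue library and from 1907505 to 8845087 per truncation library, and levels are given in CPM, counts scaled to the TMM-adjusted library size. The tables were normalized separately, so that levels were tested only within a table. The labels were checked against marker genes. Of 8 pluripotency markers, all 8 fell in NPC WT rescue and 7 fell in NPC E14 WT relative to the ESCs, by medians of 3.11 and 2.89 on the log2 scale. Sox1, a defining gene of neural progenitors, was at 4.72 ± 0.801 CPM (SD, n = 3) in ESC E14 WT and at 79.3 ± 4.87 CPM (SD, n = 3) in NPC E14 WT, but at 25.6 ± 4.30 CPM in NPC Grb10 pA (SD, n = 3) and at 19.4 ± 3.69 CPM in NPC WT rescue (SD, n = 2). Fabp7 had no count in 8 of the 10 groups. Of the neural progenitor markers tested, 3 of 4 rose in NPC E14 WT and 0 fell, while 3 of 5 rose and 1 fell in NPC WT rescue. Extraembryonic endoderm markers rose as well, 11 of 11 tested in NPC E14 WT and 9 of 13 in NPC WT rescue. Their sums were 152 to 165.4 CPM in ESC E14 WT and 1361 to 1745 CPM in NPC E14 WT. Neuron markers summed to 325.7 to 342.9 CPM in ESC E14 WT and to 134.5 to 142.7 CPM in NPC E14 WT. Pluripotency markers summed to 704.5 to 1464 CPM across the NPC libraries and to 4616 to 6793 CPM across the ESC libraries, and none of the 8 was at 0 in any group.

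Grb10 itself followed differentiation in every line with an intact copy. In the rescue libraries it was at 89.7 and 84.9 CPM in ESC WT rescue, at 87.5 and 93.0 CPM in ESC ΔZF1 rescue, at 264.5 and 258.5 CPM in NPC WT rescue and at 469.0 and 473.0 CPM in NPC ΔZF1 rescue. The ESC groups overlapped, and both NPC groups lay above them and apart from each other. In the truncation libraries the 3 values were 127.1, 125.7 and 117.7 CPM in ESC E14 WT, 130.0, 120.9 and 143.7 CPM in ESC Podxl pA and 33.8, 30.4 and 35.3 CPM in ESC Grb10 pA. As NPCs they were 769.0, 802.2 and 814.3 CPM in E14 WT, 585.9, 590.6 and 585.7 CPM in Podxl pA and 59.4, 52.3 and 52.2 CPM in Grb10 pA. The order of the group means was thus NPC E14 WT, NPC Podxl pA, ESC Podxl pA, ESC E14 WT, NPC Grb10 pA and ESC Grb10 pA, and of these neighbours only ESC Podxl pA and ESC E14 WT overlapped. By group, Grb10 counts in all ranged from 393 in ESC Grb10 pA to 26166 in NPC ΔZF1 rescue.

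**Figure D2:**
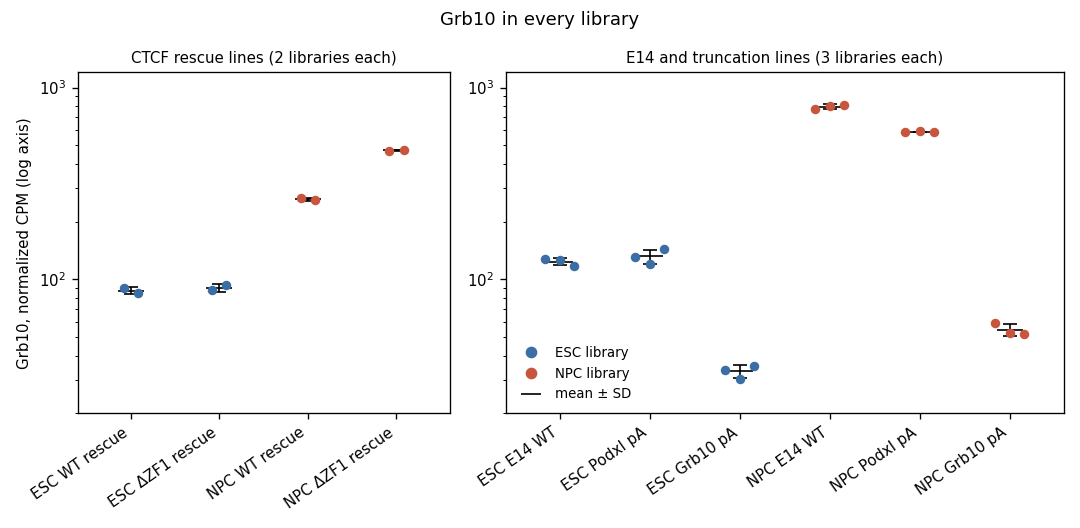
Grb10 in CPM on a log axis, with a point for each library (ESC blue, NPC red) and black bars for mean ± SD of each group (n = 2 in the rescue lines, n = 3 in the others). Grb10 was higher in NPCs than in ESCs of every line, and the 6 Grb10 pA libraries, from 30.4 to 59.4 CPM, lay below all other libraries.

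How the 5 genes change on differentiation was compared first, in each line. Differentiation moved the genes of this segment in opposite directions: Grb10 rose, while Ddc, Cobl and Fignl1 fell. In NPC E14 WT relative to ESC E14 WT all 5 genes passed both cutoffs (a Benjamini-Hochberg adjusted p of at most 0.05 in edgeR's quasi-likelihood test, and 0.5 or more on the log2 scale in either direction), as did 32.8% of all genes tested. Grb10 rose 6.42-fold (log2 fold change 2.68, SE 0.08, adjusted p = 8.86e-20). Ikzf1 rose from 1.21 to 4.05 CPM (log2 fold change 1.49, SE 0.46, adjusted p = 0.00907), from 18 to 48 counts in all. Cobl fell by 3.42 on the log2 scale (SE 0.10, adjusted p = 6.59e-20), from 308.8 ± 12.7 to 28.7 ± 2.49 CPM (SD, n = 3). Ddc fell by 0.73 (SE 0.17, adjusted p = 0.000948) and Fignl1 by 0.51 (SE 0.11, adjusted p = 0.000362). Fignl1 stood at the fold cutoff, and its fall was 0.49 in DESeq2 and with RLE normalization, below the cutoff.

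In NPC WT rescue relative to ESC WT rescue, 4 of the 5 genes passed, with 41.9% of all genes tested. Grb10 rose 3.00-fold (log2 fold change 1.58, SE 0.10, adjusted p = 1.54e-06). Cobl fell by 3.98 (SE 0.20, adjusted p = 7.04e-07), Ddc by 1.42 (SE 0.13, adjusted p = 1.4e-05) and Fignl1 by 0.76 (SE 0.15, adjusted p = 0.00219) on the log2 scale. Ikzf1 had a log2 fold change of 0.61 (SE 0.41, adjusted p = 0.247) and did not pass. Cobl and Fignl1 were uneven between the NPC WT rescue libraries, at 31.5 and 51.1 CPM and at 150.6 and 105.0 CPM. These libraries differed broadly. A chi-square of their counts, which grows with differences beyond sampling noise, was 63.1 per degree of freedom over 15539 genes. In the other rescue groups it lay between 2.92 and 6.37.

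All 5 genes passed in NPC ΔZF1 rescue relative to ESC ΔZF1 rescue (37.3% of all genes tested), in NPC Podxl pA relative to ESC Podxl pA (31.8%) and in NPC Grb10 pA relative to ESC Grb10 pA (34.6%), in the same directions as in E14 WT. Ikzf1 was the least certain. In ΔZF1 rescue its call was lost in DESeq2 (adjusted p = 0.0504) and with any of 3 of the 4 libraries left out, at log2 fold changes from 0.89 to 2.24 over all 4 omissions. It was also lost in Podxl pA without ESC replicate 2 (1.30, adjusted p = 0.112) and in Grb10 pA without NPC replicate 1 (2.42, adjusted p = 0.0506). The rise of Grb10 was 2.38 (SE 0.10) on the log2 scale in ΔZF1 rescue cells, 2.17 (SE 0.08) in Podxl pA cells and 0.72 (SE 0.10) in Grb10 pA cells, each with an adjusted p of at most 5.06e-07 in edgeR's test. The fall of Cobl lay between 3.40 and 4.43 and that of Fignl1 between 0.63 and 1.08 in these 3 lines. Ddc fell by 0.72 (SE 0.12) in ΔZF1 rescue, by 1.27 (SE 0.18) in Podxl pA and by 2.08 (SE 0.19) in Grb10 pA cells.

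Scaled by the length of all annotated exons of each gene together, Grb10 and Cobl changed places between ESC and NPC E14 WT, while the other genes kept theirs. In ESC E14 WT Cobl was highest at 37.9 ± 1.56 CPM per kb (SD, n = 3), followed by Fignl1 at 23.9 ± 1.08, Grb10 at 13.6 ± 0.561, Ddc at 4.70 ± 0.555 and Ikzf1 at 0.209 ± 0.124. In NPC E14 WT Grb10 was highest at 87.5 ± 2.58 CPM per kb (SD, n = 3), followed by Fignl1 at 16.8 ± 0.374, Cobl at 3.52 ± 0.306, Ddc at 2.75 ± 0.371 and Ikzf1 at 0.701 ± 0.162. With these lengths each step in both orders was larger than the SDs. In NPC WT rescue Grb10 at 28.8 ± 0.469 and Fignl1 at 26.4 ± 6.66 CPM per kb (SD, n = 2) differed by less than the SD of Fignl1. Grb10 entered with 9089 bases, against 5061 in Grb10-201, and a shorter length would raise its values. Its distance from Fignl1 in ESC E14 WT and NPC WT rescue thus rests on the length used.

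**Figure D3:**
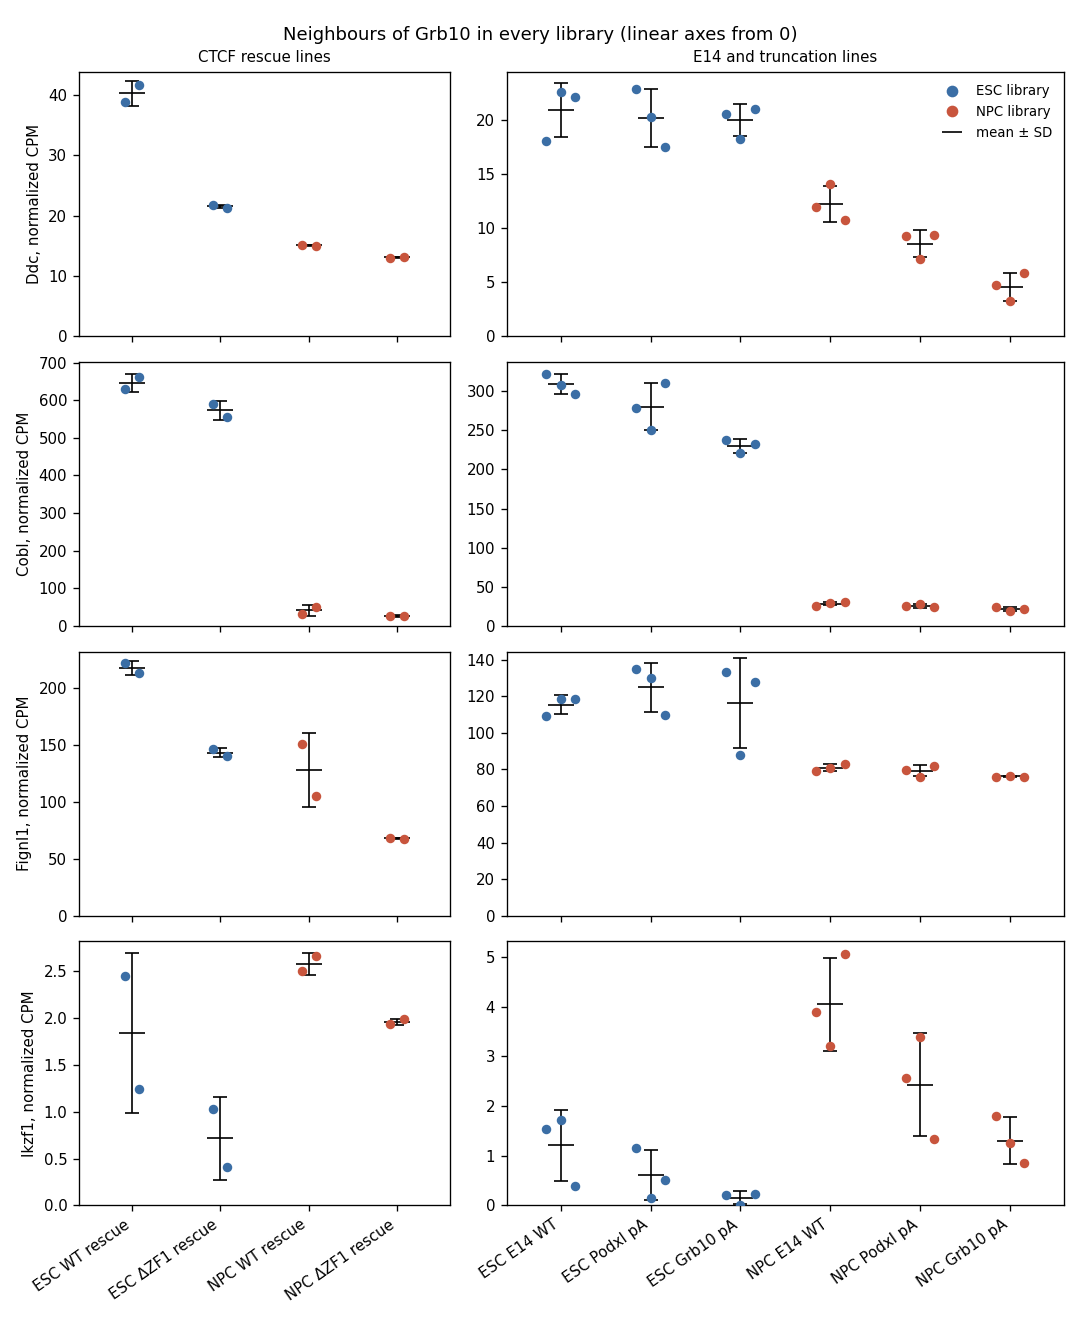
Ddc, Cobl, Fignl1 and Ikzf1 in CPM on linear axes from 0, with a point for each library (ESC blue, NPC red) and black bars for mean ± SD (n = 2 in the rescue lines, n = 3 in the others). Cobl dropped from 220.9 to 662.2 CPM across the ESC libraries to 18.7 to 51.1 CPM across the NPC libraries, and Ikzf1 was at most 5.06 CPM in every library.

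In the Grb10 pA line Grb10 was lower than in E14 WT in every library, and a smaller share of the E14 WT level was left in NPCs than in ESCs. Of the 5 genes, 2 passed in ESC Grb10 pA relative to ESC E14 WT (9.09% of all genes tested) and 3 in NPC Grb10 pA relative to NPC E14 WT (16.5%), all of them lower. Grb10, the edited gene, is among them in both, beside Ikzf1 in both and Ddc in NPCs. The lowest median log2 fold change of any autosome but chromosome 11 was -0.49 in ESC and -0.48 in NPC Grb10 pA. In Podxl pA it was -0.02 in both cell types. Chromosome 11 itself had medians of 0.06 and 0.03 in ESC and NPC Grb10 pA. The part of this shift in the shares of all genes that passed was not tested. Grb10 fell by 1.89 on the log2 scale in ESCs (SE 0.09, adjusted p = 2.14e-13), which left 26.8% of the E14 WT level, between 23.9% and 30.0% over all pairs of a Grb10 pA and an E14 WT library. In NPCs it fell by 3.86 (SE 0.09, adjusted p = 4.92e-22), which left 6.87%, between 6.4% and 7.73% over the pairs. The difference between the effects in NPCs and ESCs was -1.96 (SE 0.125, adjusted p = 1.1e-10). In this test 2 of the 5 genes, the edited Grb10 and Ddc, and 5.90% of all genes passed. The share left in NPCs was below the 14% of exon bases that lie before the insert, and the share left in ESCs was above it. Which exons the remaining reads came from was not tested.

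Ddc, the nearest of the 4 neighbours, was lower in NPC Grb10 pA. It was at 12, 14.1 and 10.8 CPM in NPC E14 WT, at 9.25, 7.15 and 9.34 CPM in NPC Podxl pA and at 4.73, 3.24 and 5.81 CPM in NPC Grb10 pA, and these 3 groups did not overlap. Relative to E14 WT it fell by 1.41 on the log2 scale (SE 0.20, adjusted p = 9.27e-06), and relative to Podxl pA by 0.85 (SE 0.21, adjusted p = 0.00303). The fall relative to E14 WT rests on 89 counts in NPC Grb10 pA and 161 in NPC E14 WT. In ESCs no difference of Ddc was detected: it was at 18.1, 22.6 and 22.1 CPM in E14 WT and at 20.6, 18.3 and 21.1 CPM in Grb10 pA, with a log2 fold change of -0.06 (SE 0.16, adjusted p = 0.863). The difference between the effects in NPCs and ESCs was -1.35 (SE 0.26, adjusted p = 0.00195). 1700042O10Rik, which is antisense to Ddc, had no count in any NPC Grb10 pA library and 8 counts in the NPC E14 WT libraries, 5, 2 and 1 by library. The exact 95% counting interval of the ratio reached up to 0.394, and the gene was too low for the filter of the edgeR test. Without strand, its counts may hold reads of Ddc.

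Markers of several cell types moved in the same comparison as the fall of Ddc. Neuron markers summed to 63.8 to 65.6 CPM in NPC Grb10 pA, 111.0 to 124.9 CPM in NPC Podxl pA and 134.5 to 142.7 CPM in NPC E14 WT, and 2 of the 5 tested fell in NPC Grb10 pA. Of these 8 markers Dcx was at 0 in NPC E14 WT and none was at 0 in NPC Grb10 pA. In ESCs, where no difference of Ddc was detected, neuron markers summed to 207.5 to 235.1 CPM in Grb10 pA and 325.7 to 342.9 CPM in E14 WT. Neural progenitor markers summed to 95.5 to 111.9 CPM, 126.1 to 134.4 CPM and 149.9 to 157.6 CPM in NPC Grb10 pA, NPC Podxl pA and NPC E14 WT, with 3 of the 4 tested lower and 1 higher in NPC Grb10 pA, and Hes5 and Fabp7 were at 0 there. Mesoderm markers summed to 71.3 to 88.2 CPM in NPC Grb10 pA and 38.5 to 44.5 CPM in NPC E14 WT, with 2 of the 3 tested higher and none of the 6 at 0 in either group. In NPC Grb10 pA 3 of the 8 pluripotency markers rose and 1 fell, and 3 of the 11 extraembryonic endoderm markers tested fell. In bulk RNA fewer cells of a type and less RNA per cell cannot be told apart, and the part of these markers in the levels of Ddc and Grb10 was not tested.

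Of the other neighbours, Cobl was lower in Grb10 pA but did not reach the fold cutoff, with a log2 fold change of -0.42 in ESCs (SE 0.08, adjusted p = 0.000698) and -0.40 in NPCs (SE 0.12, adjusted p = 0.0136). Its 3 ESC Grb10 pA libraries, at 238.0, 220.9 and 231.9 CPM, lay below the ESC E14 WT libraries at 322.1, 307.7 and 296.7 CPM. Fignl1 differed by less than its error, with log2 fold changes of 0.03 in ESCs (SE 0.11, adjusted p = 0.904) and -0.09 in NPCs (SE 0.11, adjusted p = 0.588), although its NPC Grb10 pA libraries, at 76.1, 76.5 and 76.1 CPM, lay below those of NPC E14 WT, at 79.3, 81.0 and 82.9 CPM.

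Ikzf1 was lower in both cell types, at few counts. In ESC Grb10 pA it had 1, 0 and 1 counts against 7, 10 and 1 counts in ESC E14 WT, a ratio of 0.123 with an exact 95% counting interval of 0.0138 to 0.514. The fitted log2 fold change was -2.82 (SE 0.89, adjusted p = 0.0297), and the call was lost in DESeq2 (adjusted p = 0.0829), with Podxl pA as the control (adjusted p = 0.357) and with any of 5 of the 6 libraries left out. In NPC Grb10 pA it was at 1.80, 1.25 and 0.855 CPM against 3.88, 3.21 and 5.06 CPM in NPC E14 WT, and it fell by 1.49 on the log2 scale (SE 0.42, adjusted p = 0.00975), but the call was lost with Podxl pA as the control, at -0.79 (adjusted p = 0.19), and without NPC Grb10 pA replicate 3, at -1.26 (adjusted p = 0.0515).

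**Figure D4:**
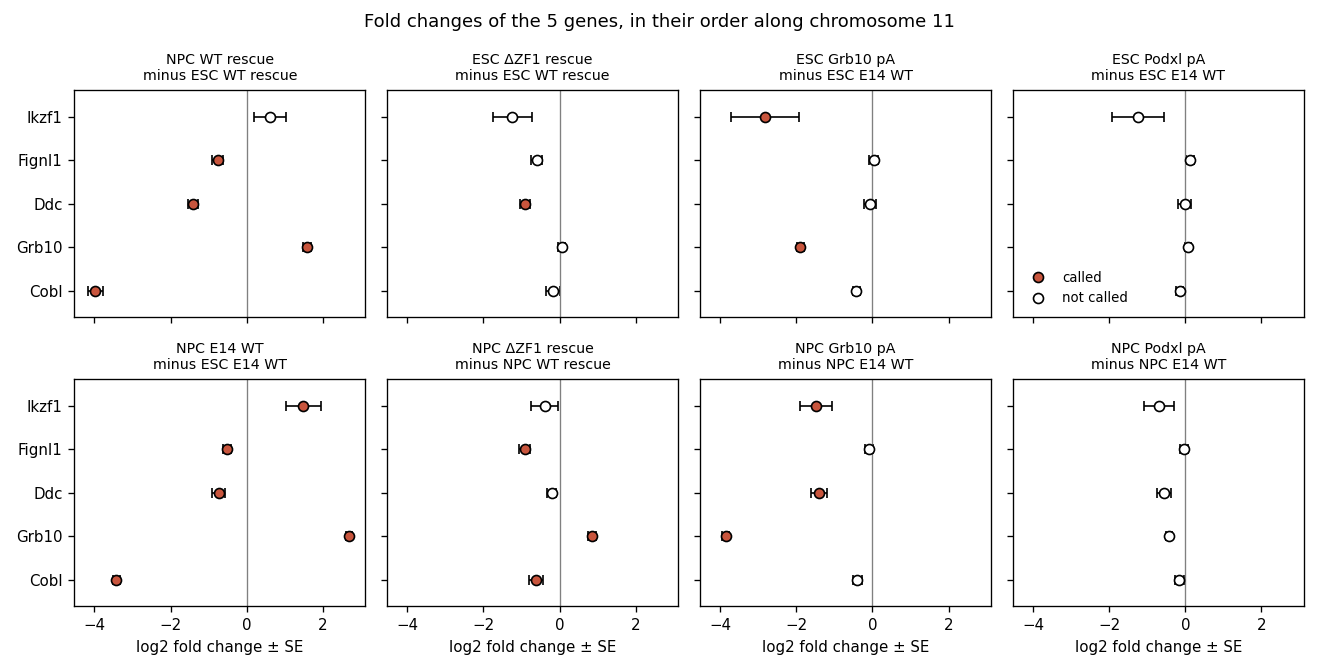
Log2 fold changes (points) with standard errors (bars) of the 5 genes in 8 comparisons, listed in their order along chromosome 11, with filled points for genes that passed both cutoffs. Grb10 is to the right of 0 on differentiation and far to the left in Grb10 pA, where Fignl1 stays at 0 in both cell types.

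The Podxl pA line shares its E14 WT controls with the Grb10 pA line. None of the 5 genes passed in ESC Podxl pA (0.339% of all genes tested) or in NPC Podxl pA (0.550%) by edgeR or by DESeq2, and at an unadjusted p under 0.05 there were 0 and 2 of them. Grb10 was nevertheless lower in every NPC Podxl pA library than in every NPC E14 WT library, with a log2 fold change of -0.44 (SE 0.07, adjusted p = 0.00248), short of the fold cutoff. Ddc had a log2 fold change of -0.55 in NPC Podxl pA (SE 0.19, adjusted p = 0.246). The difference between the effects in NPCs and ESCs did not pass for any of the 5 genes by either tool (0.0980% of all genes tested), with 2 at an unadjusted p under 0.05, and for Grb10 it was -0.51 (SE 0.11, adjusted p = 0.0654). Sox1 was at 51.2 ± 1.95 CPM (SD, n = 3) in NPC Podxl pA, below NPC E14 WT, and 7 of the 11 extraembryonic endoderm markers tested rose there.

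In the ΔZF1 rescue the question was whether the first zinc finger of CTCF bears on these genes, and in NPCs Grb10 went against the median of its chromosome. The comparisons of NPC ΔZF1 with NPC WT rescue and of NPC with ESC WT rescue share the NPC WT libraries. In NPC ΔZF1 rescue 3 of the 5 genes passed, with 17.6% of all genes tested. Among the 1317 other tested genes of chromosome 11, 571 fell and 16 rose. Grb10 was 1.80-fold higher (log2 fold change 0.85, SE 0.09, adjusted p = 0.000439), Fignl1 fell by 0.92 on the log2 scale (SE 0.15, adjusted p = 0.00287) and Cobl by 0.62 (SE 0.19, adjusted p = 0.0406). Fignl1 was at 150.6 and 105.0 CPM in NPC WT rescue and at 67.9 and 67.6 CPM in NPC ΔZF1 rescue. Ddc had a log2 fold change of -0.21 (SE 0.13, adjusted p = 0.259) and Ikzf1 of -0.39 (SE 0.35, adjusted p = 0.458). The fall of Cobl depended on the uneven NPC WT libraries: without replicate 2 of NPC WT rescue its log2 fold change was -0.26 and without replicate 1 it was -0.95, and the call was lost with any of 3 of the 4 libraries left out.

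In ESC ΔZF1 rescue 1 of the 5 genes passed, with 3.61% of all genes tested. Among the 1317 other tested genes of chromosome 11, 221 fell and 0 rose. The gene that passed was Ddc, which was at 38.8 and 41.7 CPM in ESC WT rescue and at 21.7 and 21.3 CPM in ESC ΔZF1 rescue and fell by 0.91 on the log2 scale (SE 0.12, adjusted p = 0.00953). The call was lost with any 1 of the 4 libraries left out, at log2 fold changes from -0.94 to -0.83. Fignl1 was at 221.8 and 213.1 CPM in ESC WT rescue and at 145.7 and 140.3 CPM in ESC ΔZF1 rescue, and its log2 fold change of -0.60 (SE 0.15) missed the threshold at an adjusted p of 0.0551, but passed in DESeq2 at 0.0165. Grb10 did not differ beyond its error, with a log2 fold change of 0.05 (SE 0.10, adjusted p = 0.866). Cobl had a log2 fold change of -0.17 (SE 0.18, adjusted p = 0.695), and Ikzf1, at 6 to 19 counts per library, one of -1.24 (SE 0.50, adjusted p = 0.223).

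Between the cell types, the effect of ΔZF1 on Grb10 was 0.80 larger in NPCs on the log2 scale (SE 0.135, adjusted p = 0.0156), and Grb10 was the only 1 of the 5 genes to pass this test, in which 2.70% of all genes did. With 1 library left out the difference stayed between 0.74 and 0.81, but 6 of the 8 omissions raised the adjusted p above the threshold. Ddc followed with a difference of 0.70 (SE 0.18, adjusted p = 0.0737).

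The whole of chromosome 11 was lower in both ΔZF1 comparisons, which touches every value of the 5 genes in them. Without the 5 genes, the 1317 tested genes of this chromosome had a median log2 fold change of -0.46 in ESC and -0.57 in NPC ΔZF1 rescue, while no other autosome had a median outside -0.01 to 0.04 in ESCs or -0.04 to 0.17 in NPCs. Of the 123 other genes tested within 10 Mb of its start, 110 were below 0 in ESC and 105 in NPC ΔZF1 rescue, with medians of -0.49 and -0.54. Within 5 Mb, 12 of 17 genes were below 0 in both, with medians of -0.29 and -0.26. In NPC ΔZF1 rescue 571 genes of the chromosome fell and 16 rose, and 29 had a higher log2 fold change than Grb10. In ESC ΔZF1 rescue 121 were higher than Grb10 and 1196 were lower. The part of this shift in the values of the 5 genes was not tested. Scaling by the median of the whole chromosome moves all its genes by the same amount. It therefore cannot measure that part, and this median was larger in size than the medians within 5 Mb.

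When chromosome 11 genes were scaled by their own median, the log2 fold change of Grb10 became 0.51 in ESC ΔZF1 rescue (SE 0.10, adjusted p = 0.0389), which passes, and 1.42 in NPC ΔZF1 rescue (SE 0.10, adjusted p = 2.92e-05). Every neighbour moved up by the same shift, so that the calls of lower levels were lost. Ddc in ESCs became -0.45 (adjusted p = 0.116), Fignl1 in NPCs -0.35 (adjusted p = 0.132) and Cobl in NPCs -0.06 (adjusted p = 0.858), while Ddc in NPCs turned from -0.21 to 0.36 (adjusted p = 0.0781) and Cobl in ESCs from -0.17 to 0.28 (adjusted p = 0.517). The difference of Ddc between NPCs and ESCs became 0.80 (adjusted p = 0.046) and passed.

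**Figure D5:**
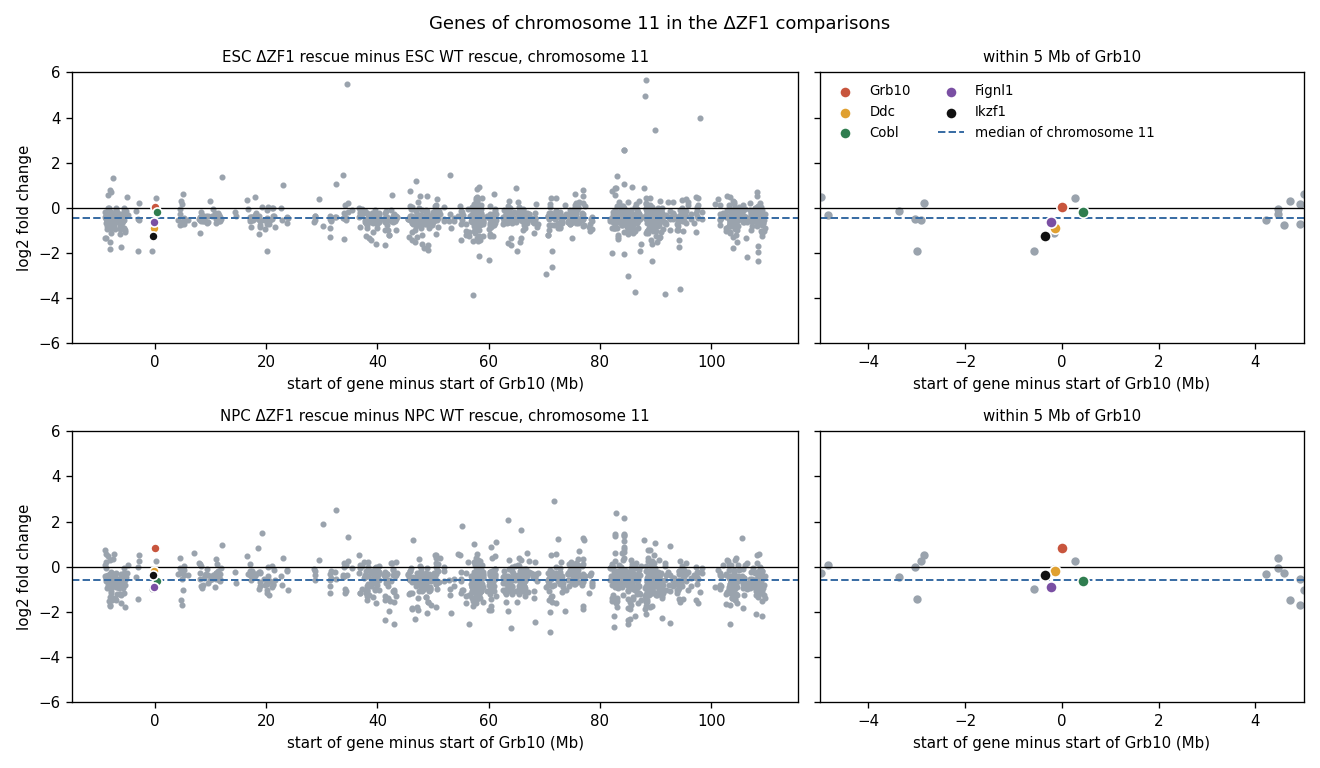
Log2 fold changes of the tested genes of chromosome 11 by the distance of their start from that of Grb10 in Mb, in ESC (top) and NPC (bottom) ΔZF1 rescue relative to WT rescue, for the whole chromosome (left) and within 5 Mb (right). Grey points are genes, colored points the 5 genes and the dashed lines the medians of -0.46 and -0.57. Grb10 stands at 0.05 and 0.85, above the line in both.

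Markers of extraembryonic endoderm moved with the rise of Grb10 in NPC ΔZF1 rescue. All 13 genes of this list rose there, by a median of 2.68 on the log2 scale, and their summed level was 1382 and 1799 CPM in the NPC WT rescue libraries and 7540 and 7666 CPM in the NPC ΔZF1 rescue libraries. In ESC ΔZF1 rescue none of the 13 passed by edgeR or DESeq2 and none had an unadjusted p under 0.05. In NPC Podxl pA the sums were 2489 to 2684 CPM, above the 1361 to 1745 CPM of NPC E14 WT, while Grb10 was lower. None of the 13 was at 0 in these groups, and the part of these markers in the level of Grb10 was not tested. Of other lists in NPC ΔZF1 rescue, 3 of the 5 neural progenitor markers tested rose and 1 fell, 2 of the 6 neuron markers tested rose and 1 fell, 1 of the 5 mesoderm markers tested rose and 2 fell, and the 8 pluripotency markers had a median log2 fold change of -0.04.

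The adaptors most related to Grb10 by sequence are Grb7 and Grb14, which share its domains. Grb7, which lies on chromosome 11 as well, was at 78.7 ± 22.7 CPM in NPC WT rescue and 41.5 ± 2.22 CPM in NPC ΔZF1 rescue (SD, n = 2) and fell by 0.92 on the log2 scale (SE 0.17, adjusted p = 0.00574), while Grb10 rose. Its NPC WT rescue libraries were uneven, at 62.6 and 94.7 CPM. The median of chromosome 11 was -0.57 in this comparison, and the part of that shift in Grb7 was not tested. In Grb10 pA Grb7 was lower in both cell types without reaching the fold cutoff, with log2 fold changes of -0.49 in ESCs (SE 0.13, adjusted p = 0.00862) and -0.45 in NPCs (SE 0.11, adjusted p = 0.00462). Grb14 was at 5.19 ± 2.25 CPM in NPC E14 WT and 4.62 ± 1.34 CPM in NPC Grb10 pA (SD, n = 3), with a log2 fold change of -0.23 (SE 0.30, adjusted p = 0.606). Neither passed in ESC or NPC Grb10 pA by edgeR or DESeq2, and 1 of the 2 had an unadjusted p under 0.05 in each.

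Of 29 genes of insulin and insulin-like growth factor signaling and known partners of Grb10, 28 were tested in the truncation lines. In ESC Grb10 pA 3 of them rose and none fell, with a median log2 fold change of 0.03 against 0.01 over all genes, and their share was close to the 9.09% of all genes that passed. These were Kit, a receptor tyrosine kinase that Grb10 can bind (0.59, SE 0.09), Igf1r, the receptor of insulin-like growth factors (0.53, SE 0.15), and Gigyf1, named for its binding to Grb10 (0.52, SE 0.12). In NPC Grb10 pA 1 rose and none fell, which is below the share of all genes. This was Igf1r, at 46.4 CPM in NPC E14 WT and 77.6 CPM in NPC Grb10 pA (log2 fold change 0.70, SE 0.13, adjusted p = 0.000286), the only 1 of the list to pass in both cell types. The effect on Kit was 0.58 lower in NPCs than in ESCs (SE 0.14, adjusted p = 0.0113). None of the 28 passed in ESC or NPC Podxl pA by either tool, with 3 and 4 at an unadjusted p under 0.05.

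In NPC ΔZF1 rescue 3 of the 29 rose and 3 fell, a share close to that of all genes. The largest changes of the list were those of Irs4, an adaptor of the insulin receptor, from 1.04 to 3.42 CPM (log2 fold change 1.56, SE 0.40, adjusted p = 0.0226), and of the growth factor Igf2, from 322.4 to 127.3 CPM (-1.34, SE 0.21, adjusted p = 0.00241). The mTORC1 subunit gene Rptor, which lies on chromosome 11, had a log2 fold change of -0.89 (SE 0.15) and Pik3r1, which encodes a regulatory subunit of PI3-kinase, of 0.87 (SE 0.12). In ESC ΔZF1 rescue 1 of the 29, Grb2, also on chromosome 11, fell by 0.62 on the log2 scale (SE 0.10, adjusted p = 0.018), a share close to the 3.61% of all genes.

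Of 11 genes that make, carry or break down aromatic amines around Ddc, 4 were tested in the truncation lines. None of these passed in ESC or NPC Grb10 pA by either tool and none had an unadjusted p under 0.05, with medians of 0.09 and 0.02. In the rescue lines 7 were tested, and 1 passed in NPC ΔZF1 rescue, a share no higher than the 17.6% of all genes. This was Gch1, which makes the cofactor of the hydroxylases upstream of Ddc, with a log2 fold change of -1.08 (SE 0.31, adjusted p = 0.0343), and it did not pass in DESeq2. In NPC WT rescue relative to ESC WT rescue 3 of the 7 rose and 0 fell, a share close to the 41.9% of all genes. Th was among them, at 0.218 CPM in ESC WT rescue and at 1.79 CPM in NPC WT rescue (log2 fold change 3.22, SE 0.61, adjusted p = 0.0018), where Ddc fell. The ESC level of Th was near the floor, as 3 counts make 0.459 and 0.196 CPM in the ESC WT rescue libraries.

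Besides the 4 neighbours, 20 listed genes start within 1 Mb of Grb10, many of them small RNAs and pseudogenes. In the rescue lines 3 of them were tested: Zpbp, 1700042O10Rik and Gm12002. None passed in ESC or NPC ΔZF1 rescue by edgeR or DESeq2, with 2 and 0 at an unadjusted p under 0.05. On differentiation of WT rescue cells both antisense genes fell with the gene they overlap, 1700042O10Rik by 2.27 on the log2 scale (SE 0.41, adjusted p = 0.00139) and Gm12002 by 3.25 (SE 0.60, adjusted p = 0.0015), at 23 and 7 counts in all in NPC WT rescue. As strand was not used, these counts may hold reads of Ddc and Cobl themselves. In the truncation lines none of the 20 passed the filter of the edgeR test. DESeq2, run without that filter, called Gm12002 lower in NPC than in ESC E14 WT (adjusted p = 0.0239), at 1 against 18 counts in all, and 1700042O10Rik lower in NPC than in ESC Grb10 pA (adjusted p = 0.00303), at 0 against 12 counts.

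To name genes with a pattern like that of Grb10, the group means of log2 CPM were centred within each table over the 8 groups with an intact Grb10, and the 7260 genes that averaged 100 or more normalized counts in each table were compared. The 5 with the highest Pearson r over the 8 groups were Nol9 (0.998), Pkdcc (0.993), Tmed8 (0.993), Yap1 (0.992) and Lin28a (0.991). Pkdcc and Lin28a also rose by large amounts on differentiation, by 5.04 and 2.80 on the log2 scale in NPC E14 WT, while Nol9, Tmed8 and Yap1 differed by 0.25 to 0.58. In NPC ΔZF1 rescue the log2 fold changes were 0.88 for Pkdcc, 0.70 for Lin28a, 0.26 for Tmed8, 0.20 for Yap1 and 0.07 for Nol9. The groups of this comparison are among the 8 by which the 5 genes were chosen, so that these values are no separate evidence of likeness. Over the same 8 groups, r with Grb10 was -0.97 for Cobl, -0.86 for Ddc, -0.85 for Fignl1 and 0.81 for Ikzf1. These values describe 8 group means from the same libraries, in which the difference between ESCs and NPCs dominates.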

How the data were processed

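RNA-seq counts of 26 libraries in 10 groups were analysed. The authors depleted rRNA, made directional libraries, used STAR with its defaults to map read pairs to mm10 and featureCounts, within the sns pipeline, to count them per gene, and deposited whole-number counts without normalization. Strand was not used in the counting, and the annotation and versions are not given in the sources used here. Left out were 3 columns of the truncation table without a matching sample. Positions and transcripts came from GENCODE M21 on GRCm38, which held 53292 of the 55291 listed symbols.

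Genes were tested per table by the quasi-likelihood F test of edgeR 4.0.16 (R 4.3.3) on group means, after TMM scaling and the package's default filter, which left 16641 and 13268 genes, with Benjamini-Hochberg adjustment over all genes tested. A gene passed with an adjusted p no higher than 0.05 and an absolute log2 fold change no lower than 0.5. The standard error is the size of the log2 fold change divided by the square root of F. Effects were compared between cell types as contrasts of 4 group means. Counting intervals and floors cover counting error only. On simulated counts, 185 of 200 changed genes among 16030 were called for NPC ΔZF1 against NPC WT rescue, with 7 false calls, and 190 of 200 among 12874 for NPC Grb10 pA against NPC E14 WT, with 4.

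The 5 genes and all gene lists were chosen with earlier results of these data known. Named genes were the 5 genes, Grb7 and Grb14, listed genes within 1 Mb that passed or overlap, at most 4 insulin pathway and 3 aromatic amine genes per comparison, and the 5 genes most like Grb10. Sox1, Fabp7, Hes5, Dcx and Th were named as markers or list members after their values were seen, and a marker list of other cell types is not reported here. Alternatives were DESeq2 1.42.0, RLE normalization, no filter, only the groups compared, a replicate block, each library left out, the chromosome 11 median in the offsets and Podxl pA as the control. Libraries of a group differed by more than sampling noise in every pair, so that none was counted as a copy.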

Additional observations from a re-analysis of the deposited data

Results flagged for a closer look

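The effect of ΔZF1 on Grb10 differed between the cell types, by a contrast of the 4 group means in edgeR: the log2 fold change was 0.80 higher in NPCs than in ESCs (SE 0.135, adjusted p = 0.0156). With a library left out the difference stayed between 0.74 and 0.81, but most omissions lost the call. Both NPC ΔZF1 rescue libraries were above both NPC WT rescue libraries, while the ESC groups overlapped.

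The log2 fold change of Grb10 in Grb10 pA relative to E14 WT differed too, with a difference of -1.96 between NPCs and ESCs (SE 0.125, adjusted p = 1.1e-10). All 3 Grb10 pA libraries were below all 3 E14 WT libraries in both cell types.

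The log2 fold change of Ddc in Grb10 pA relative to E14 WT differed by -1.35 between NPCs and ESCs (SE 0.26, adjusted p = 0.00195). In NPCs all 3 Grb10 pA libraries were below all 3 E14 WT libraries, and in ESCs the groups overlapped.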

How the results depend on the processing

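The direction of Grb10 on differentiation, in Grb10 pA and in NPC ΔZF1 rescue, and its call there, held under every alternative run. Over all values compared, 876 of 992 alternatives kept direction and side of the threshold.

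Scaling chromosome 11 by its own median moved Grb10 in ESC ΔZF1 rescue to 0.51, past the threshold, reversed Cobl there to 0.28, and reversed Ddc and Ikzf1 in NPC ΔZF1 rescue to 0.36 and 0.18. Genes that passed in ESC ΔZF1 rescue, 601, became 245 under that scaling, 1088 without the filter and 1601 with only the groups compared, and the 2936 of NPC ΔZF1 rescue became 1222 with only the groups compared. For the difference of ΔZF1 effects, 449, they were 680 in DESeq2 and 1139 without the filter. In ESC Podxl pA the 45 became 94 without the filter and 22 with only the groups compared, and in NPC Podxl pA the 73 became 133 with the latter. The 13 of the difference of Podxl pA effects became 33 in DESeq2, 108 without the filter and 56 with only the groups compared, where Grb10 passed at -0.51. Cobl in that difference, at -0.0026, turned to 0.0026 in DESeq2, 0.0025 with RLE, 0.0305 without the filter and 0.0018 with only the groups compared. Fignl1 in ESC Grb10 pA turned to -0.10 with Podxl pA as the control. The cause was not tested for any of these.

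With 1 library left out, genes that passed ranged from 8 to 21 in ESC ΔZF1 rescue, 943 to 5870 in NPC ΔZF1 rescue, 54 to 4673 in the difference of ΔZF1 effects, 12 to 38 in ESC Podxl pA, 44 to 60 in NPC Podxl pA, 506 to 943 in the difference of Grb10 pA effects and 6 to 28 in that of Podxl pA effects. The highest counts of NPC ΔZF1 rescue and of the difference of ΔZF1 effects were those without NPC WT rescue replicate 1. The difference of ΔZF1 effects on Grb10 ranged from 0.74 to 0.81. Values near 0 changed sign: Ddc from -0.16 to 0.022 in ESC Grb10 pA and from -0.12 to 0.059 in ESC Podxl pA, Fignl1 from -0.08 to 0.17 in ESC Grb10 pA and from -0.0575 to 0.0014 in NPC Podxl pA, Cobl from -0.0577 to 0.10 in the difference of Grb10 pA effects and from -0.0804 to 0.0735 in that of Podxl pA effects, and Ikzf1 from -0.19 to 1.67 in the latter. A lone remaining library was assumed to vary like the other groups.

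Deviations of libraries with the same replicate number correlated at -0.09 to 0.083 in all comparisons but NPC against ESC ΔZF1 rescue, at 0.132 with 2 pairs, and the numbers were not taken to pair libraries. With the replicate block no call of the 5 genes changed, Grb10 in NPC ΔZF1 rescue stayed at 0.85, and 409 genes passed in ESC ΔZF1 and 2740 in NPC ΔZF1 rescue. Depth limits Ikzf1 and the antisense genes most, with 0 to 21 counts of Ikzf1 per truncation library.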
